A study of Mus musculus with 10 samples.

Results

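The chromatin binding of NPM1 (nucleophosmin) was compared between mouse bone marrow-derived macrophages (BMDM) stimulated with interleukin-4 (IL-4) and untreated BMDM. The comparison takes in the 2 libraries that the labels describe so, out of 10 libraries in the series, and each is the only library of its group. Both were wild-type (WT) cells from bone marrow, cultured with M-CSF (50 ng/ml, 7 days), the growth factor that turns marrow progenitors into macrophages. The IL-4 group was labelled as 20 ng/ml IL-4 for 12 hours and the untreated group as 0 hours. The treatment protocol entered for every BMDM library of the series, the untreated one included, is IL-4 stimulation, so the untreated group rests on the library's title and characteristics. NPM1 was mapped by CUT&Tag, in which a transposase tethered to an antibody cuts and tags the DNA around the bound protein. Lists from WT cardiac macrophages at 3 days after infarction or a sham operation are set beside the BMDM lists near the end. The labels give no strain, age or sex and do not say whether the cultures came from the same animals. With 1 library per group there is no replicate check and no p-value, and an effect of IL-4, of the culture and of the library preparation cannot be told apart.

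NPM1 is an abundant nucleolar protein that shuttles between nucleolus, nucleoplasm and cytoplasm. It acts as a chaperone for histones and takes part in ribosome assembly, and it has been found at the chromatin of active genes. IL-4 binds a receptor made of IL-4Rα and a second chain, which activates JAK kinases and through them STAT6, and macrophages respond with the alternative activation program, marked by genes such as Arg1, Retnla, Chil3 and Mrc1. Active gene starts in mammals often lie in CpG islands, stretches where the CpG dinucleotide is dense, and carry the histone mark H3K4me3.

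Gene-start sequences of 7 genes are shown because the number of CpG dinucleotides differed between gene starts with and without a called NPM1 peak. Each is the RefSeq promoter of the mm10 assembly (GRCm38.p6), from 250 bases before to 50 bases after the gene start, written 5′ to 3′ on the strand of the gene, and capitals mark CpG dinucleotides. Stat3, Stat6 and Mrc1 had a peak in the IL-4 list only, Acsl1, Kdm1b and Zfp317 in both lists, and Retnla in neither. The intervals are chr11:100939491-100939790 on the minus strand for Stat3 and, on the plus strand, chr10:127642736-127643035 for Stat6, chr2:14229164-14229463 for Mrc1, chr8:46470787-46471086 for Acsl1, chr13:47043249-47043548 for Kdm1b, chr9:19621841-19622140 for Zfp317 and chr16:48842359-48842658 for Retnla.
Stat3: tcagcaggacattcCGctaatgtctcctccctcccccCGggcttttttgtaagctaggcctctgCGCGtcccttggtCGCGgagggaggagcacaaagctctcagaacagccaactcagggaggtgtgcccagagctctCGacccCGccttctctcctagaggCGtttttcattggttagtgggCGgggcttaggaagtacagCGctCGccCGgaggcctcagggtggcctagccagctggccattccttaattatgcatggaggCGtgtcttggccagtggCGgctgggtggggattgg
Stat6: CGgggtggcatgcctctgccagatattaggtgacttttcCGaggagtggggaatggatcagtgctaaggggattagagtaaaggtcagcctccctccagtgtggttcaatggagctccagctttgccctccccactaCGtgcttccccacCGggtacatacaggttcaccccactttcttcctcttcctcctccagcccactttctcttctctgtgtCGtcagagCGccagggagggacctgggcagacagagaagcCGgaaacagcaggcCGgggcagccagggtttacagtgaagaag
Mrc1: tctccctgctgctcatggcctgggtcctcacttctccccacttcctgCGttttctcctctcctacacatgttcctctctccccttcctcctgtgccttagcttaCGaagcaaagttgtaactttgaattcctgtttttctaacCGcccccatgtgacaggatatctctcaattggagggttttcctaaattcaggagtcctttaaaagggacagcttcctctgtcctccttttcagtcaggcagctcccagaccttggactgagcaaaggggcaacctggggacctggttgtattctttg
Acsl1: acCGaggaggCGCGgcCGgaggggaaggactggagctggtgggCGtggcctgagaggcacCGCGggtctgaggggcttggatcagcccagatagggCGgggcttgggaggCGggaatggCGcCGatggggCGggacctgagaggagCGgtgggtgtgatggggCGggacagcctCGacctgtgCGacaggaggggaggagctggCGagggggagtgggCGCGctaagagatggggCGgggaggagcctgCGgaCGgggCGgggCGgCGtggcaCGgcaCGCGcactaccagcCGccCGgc
Kdm1b: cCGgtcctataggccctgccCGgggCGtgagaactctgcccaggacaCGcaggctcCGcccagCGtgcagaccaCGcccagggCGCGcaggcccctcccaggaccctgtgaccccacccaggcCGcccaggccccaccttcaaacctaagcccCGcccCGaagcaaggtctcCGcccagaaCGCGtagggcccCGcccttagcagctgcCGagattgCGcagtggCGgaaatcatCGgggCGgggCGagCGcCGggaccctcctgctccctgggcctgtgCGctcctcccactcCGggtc
Zfp317: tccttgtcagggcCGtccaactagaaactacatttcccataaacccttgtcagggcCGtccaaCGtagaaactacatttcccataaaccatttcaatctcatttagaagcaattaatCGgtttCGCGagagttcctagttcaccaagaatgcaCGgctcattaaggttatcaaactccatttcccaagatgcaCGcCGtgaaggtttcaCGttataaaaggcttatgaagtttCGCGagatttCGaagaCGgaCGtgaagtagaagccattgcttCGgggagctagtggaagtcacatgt
Retnla: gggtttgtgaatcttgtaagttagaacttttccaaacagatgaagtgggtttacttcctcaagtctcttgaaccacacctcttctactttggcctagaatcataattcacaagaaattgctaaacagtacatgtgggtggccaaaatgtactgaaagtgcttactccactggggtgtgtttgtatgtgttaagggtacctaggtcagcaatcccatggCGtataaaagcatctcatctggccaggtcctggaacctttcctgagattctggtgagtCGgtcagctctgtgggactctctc

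Stat3 has 15 CpGs in its 300 bases, Acsl1 30, Kdm1b 26 and Zfp317 16. Stat6 with 8 CpGs and Mrc1 with 3 were marked at starts with fewer CpGs, and Retnla has 2 CpGs and no peak. Stat3, a transcription factor downstream of many cytokine receptors, had an IL-4 peak of 1048 bp with a fold enrichment of 8.91 and a summit pileup of 112 reads, 21 bp after the gene start. Fold enrichment is the peak caller's ratio of summit pileup to local background, after adding 1 to both. At Kdm1b, which encodes a histone H3K4 demethylase, the IL-4 summit lay at −169 bp from the start with a pileup of 91 reads, and the untreated summit at −172 bp with a pileup of 9 reads. The same place was thus marked in both lists, at very different read numbers.

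The lists differ in depth, and every comparison rests on that. The IL-4 list holds 104514 regions covering 42.0 Mb and the untreated list 58989 regions covering 20.0 Mb. The genome-wide background, read from the deposited folds and p-values, was 4.18 reads in the IL-4 library and 1.31 in the untreated library, a ratio of 3.19. At that background a summit needed 10 reads (a fold of 2.12) to be listed in IL-4 and 5 reads (a fold of 2.60) in untreated. The median summit held 16 reads in IL-4 and 9 in untreated, with median folds of 2.97 and 3.46. A higher fold in either list is therefore not a measure of more binding than in the other. To bring the IL-4 list to the untreated background, the IL-4 summits and backgrounds were divided by 3.19 and kept only where they would still be called, which left 52497 regions (50.2%), fewer than the untreated list holds. This thinned IL-4 list stands beside the deposited ones below. Thinning matches the background alone, can only remove regions and leaves their widths, folds and q-values as deposited, so it does not make the lists equal in depth in every respect.

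IL-4 regions marked the ends of many more genes than untreated regions, also after thinning. A gene was called marked where a region came within 1 kb of either outer end of the gene. Of 21887 protein-coding genes, 11214 (51.2%) were marked in IL-4, 8770 (40.1%) in the thinned IL-4 list and 1469 (6.71%) in untreated. Of these, 10179 were marked in IL-4 only, 434 in untreated only and 1035 in both, so that 70.5% of the untreated genes were also IL-4 genes and 9.23% of the IL-4 genes were also untreated genes. After thinning, 590 genes were untreated only, 7891 IL-4 only and 879 both. Restricting both lists to regions with a −log10 q of 5 or more left 6427 genes (29.4%) in IL-4 and 87 genes (0.397%) in untreated. At 813 of the 1035 genes marked in both lists the regions themselves overlapped.

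Gene starts were marked more often than the other ends of genes. Strand was known for 17492 genes, and in these the start was marked at 8132 genes (46.5%) and the other end at 2553 (14.6%) in IL-4, a ratio of 3.19. In the untreated list the start was marked at 834 genes (4.77%) and the other end at 490 (2.80%), a ratio of 1.70, and in the thinned IL-4 list at 6633 and 1367 genes, a ratio of 4.85. The contrast grew with stronger regions in IL-4 and not in untreated. With a −log10 q of 5 or more, IL-4 marked 5010 starts and 681 other ends, a ratio of 7.36, and untreated marked 30 starts and 43 other ends, a ratio of 0.698.

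Summits gave the same picture at finer scale. Within 250 bp of a gene start the IL-4 list had a mean of 2790 summits per 250 bp bin, against 272.4 per bin between 1 and 3 kb away, a ratio of 10.2. The untreated list had 182 against 55.4 per bin, a ratio of 3.29, and the thinned IL-4 list 2367 against 148.4, a ratio of 15.9. Untreated regions thus also peaked at gene starts, more weakly. Only 2 summits per bin with a −log10 q of 5 or more lay within 250 bp of a start in untreated, against 4.88 per bin farther out, so that the untreated peak at gene starts consists of weak regions. Within the first 1 kb, IL-4 had 4828 summits after the gene start and 3818 before it, and untreated 444 and 373. At the other end of genes both lists had a dip, to 0.649 of the level farther out in IL-4 and 0.583 in untreated.

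**Figure D1:**
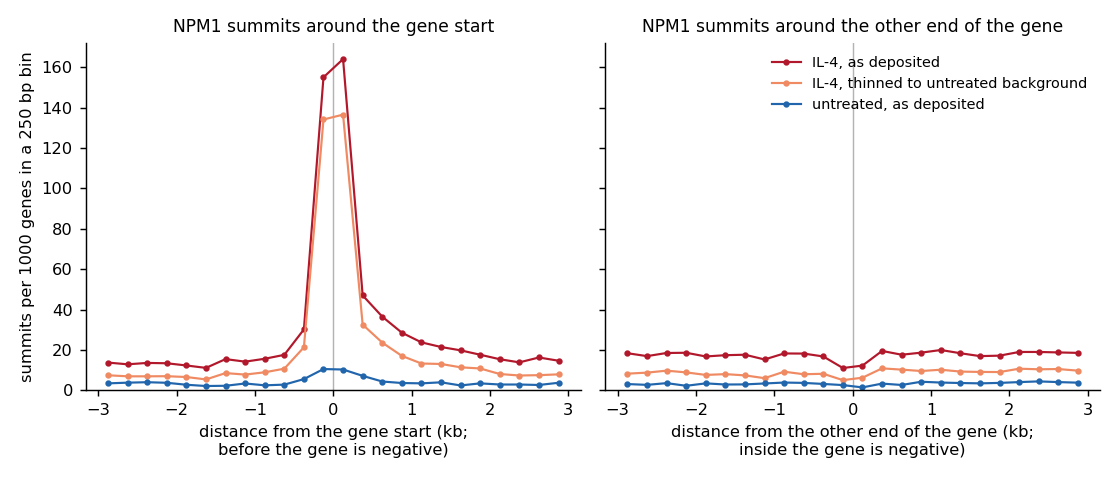
NPM1 summits per 1000 genes in 250 bp bins (y axis) against the distance in kb (x axis) from the gene start (left) and the other gene end (right), for 17492 genes of known strand. Lines are the IL-4 list, the IL-4 list thinned to the untreated background and the untreated list, 1 library each. At the start the IL-4 bins reach 155 and 164, the thinned bins 134 and 137 and the untreated bins 10.5 and 10.3, and no line rises at the other end.

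Most untreated summits lay over 50 kb from the nearest gene end. Of the IL-4 summits 11.04% were within 1 kb of a gene end, 13.1% between 1 and 5 kb, 43.0% between 5 and 50 kb and 32.8% farther than 50 kb. The untreated shares were 2.22%, 5.98%, 36.3% and 55.5%. The windows of 1 kb around gene ends make up 2.91% of the chromosomes' extent, so the untreated share within them was below the share of sequence they hold and the IL-4 share was above it. In the thinned IL-4 list 15.4% were within 1 kb and 31.5% beyond 50 kb. Summits inside genes made up 46.0% of the IL-4 list and 29.5% of the untreated list. Distance from a gene end is not distance from a gene, since long genes hold such places, and 29.3% of the IL-4 and 21.5% of the untreated summits beyond 50 kb were inside a gene.

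Stronger regions were nearer to gene ends in IL-4 and not in untreated. When each list was divided into 10 classes of equal size by −log10 p, the share of summits within 1 kb of a gene end was 7.42% in the weakest class and 32.4% in the strongest class of the IL-4 list. In the untreated list it was 2.14% in the weakest and 1.15% in the strongest class. The strongest untreated regions were instead those found in both lists. In that list 23.5% of the weakest and 83.6% of the strongest class overlapped an IL-4 region, and in the IL-4 list 8.43% of the weakest and 38.2% of the strongest class overlapped an untreated region. Strong untreated regions were therefore mostly IL-4 regions as well, away from gene ends.

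**Figure D2:**
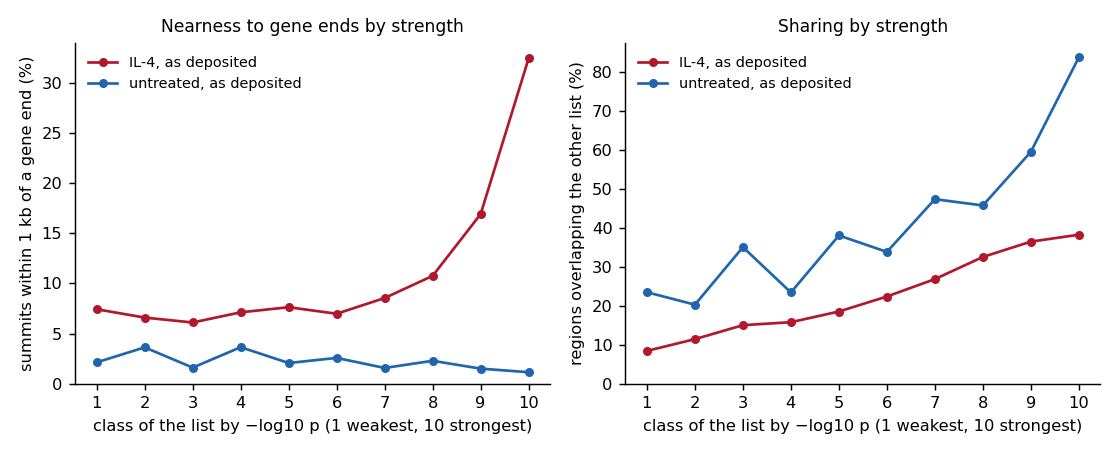
Share of summits within 1 kb of a gene end (left, percent) and share of regions overlapping the other list (right, percent) against the strength class by −log10 p, from the weakest (1) to the strongest (10) class of each list. The IL-4 line on the left goes from 7.42% to 32.4% and the untreated line stays between 1.15% and 3.65%, and on the right the untreated line reaches 83.6%.

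The strongest regions of all were common to both lists, and many lay at the last called positions of their chromosomes. Each of the 12 regions with the highest −log10 p in IL-4, and each of the 12 in untreated, overlapped a region of the other list. In both lists such regions lay within 0.4 kb of the last base that any region or protein-coding gene reached on chromosomes 2, 7, 12, 14, 16, 18 and 19. The regions themselves take part in setting that base, so the distance to the chromosome end was not measured. The last region of chromosome 3, 880 bp beyond the end of Wls, a gene for a Wnt transport protein, had folds of 42.7 in both lists. A further one, on chromosome 2 (chr2:98666240-98667339 in IL-4), was more than 1 Mb from the nearest protein-coding gene. Its −log10 q was 6511.7 in IL-4 and 9427.7 in untreated, the library with the lower background. No repeat or high-signal regions were taken out of the lists here. Whether reads at such places can be placed with certainty was not tested.

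Between the lists 23568 IL-4 regions (22.6%) overlapped an untreated region and 24186 untreated regions (41.0%) overlapped an IL-4 region. The share grew to 54.2% for untreated regions within 1 kb of a gene end and was 6.09% for IL-4 regions there. Over 50 kb from a gene end the shares were 39.4% of untreated and 36.7% of IL-4 regions. The shares thus ran in opposite directions. The shared part of the untreated list was higher within 1 kb than beyond 50 kb, and that of the IL-4 list was lower there, where IL-4 had 10840 regions without an untreated partner. Among 24733 overlapping pairs the summits lay a median of 103 bp apart.

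Chromosomes differed in the same way. The IL-4 list had from 15.5 regions per Mb on chromosome X to 52.4 on chromosome 11, and the untreated list from 15.6 on chromosome 11 to 45.6 on chromosome Y. Over 21 chromosomes the rank correlation of genes per Mb with regions per Mb was 0.904 in IL-4 and −0.274 in untreated, as a description of chromosomes that share a library. IL-4 regions outnumbered untreated regions by 3.36 on chromosome 11 and 2.93 on chromosome 19, which are gene-dense. On the sex chromosomes untreated regions were the more numerous, with 2641 IL-4 against 3575 untreated regions on X and 1890 against 4145 on Y. This order set the sex chromosomes apart only in the lists as deposited. After thinning the IL-4 regions were the fewer on 11 of 19 autosomes as well, with 3372 against 4248 on chromosome 1 and 2542 against 3331 on chromosome 3, and the lowest ratios of IL-4 to untreated regions were still those of X (0.413) and Y (0.141). X and Y held 2.53% and 1.81% of the IL-4 list and 6.06% and 7.03% of the untreated list.

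IL-4 regions were also wider. Median widths were 326 bp in IL-4 and 270 bp in untreated, and 15.03% of the IL-4 regions and 28.7% of the untreated regions had the smallest deposited width of 200 bp. Regions of 1 kb or more made up 3.23% and 1.41% of the lists. The difference was larger near gene ends. Within 1 kb of a gene end the medians were 466 bp in IL-4 and 232 bp in untreated, and beyond 50 kb they were 315 and 276 bp. IL-4 regions near gene ends were thus wider than distant ones, and untreated regions near gene ends were narrower than distant ones.

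Widths were also read by class of deposited fold. A like fold does not stand for a like read number in the 2 lists. Width went up with fold over most classes and not over all, since the IL-4 median was 779 bp at folds from 7 to 10 and 572 bp above, and the untreated median 243 bp at folds from 2 to 3, 237 bp from 3 to 4, 496 bp from 7 to 10 and 419 bp above. At folds from 5 to 7 the median width within 1 kb of a gene end was 752 bp for 1973 IL-4 regions and 377 bp for 57 untreated regions. At folds from 3 to 4 it was 424 bp for 3034 and 211 bp for 817 regions. Over all distances at folds from 5 to 7 the medians were 669 and 429 bp. The libraries differ in depth by 3.19, and the part of depth in the width was not tested, since the deposited regions cannot be called again at a lower depth. At the 813 genes with overlapping gene-end regions the medians were 718 bp in IL-4 and 270 bp in untreated, and the IL-4 region was the wider at 729 of them. Of the strongest region of each marked gene, 1431 (12.8%) were 1 kb or wider in IL-4 and 11 (0.749%) in untreated.

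**Figure D3:**
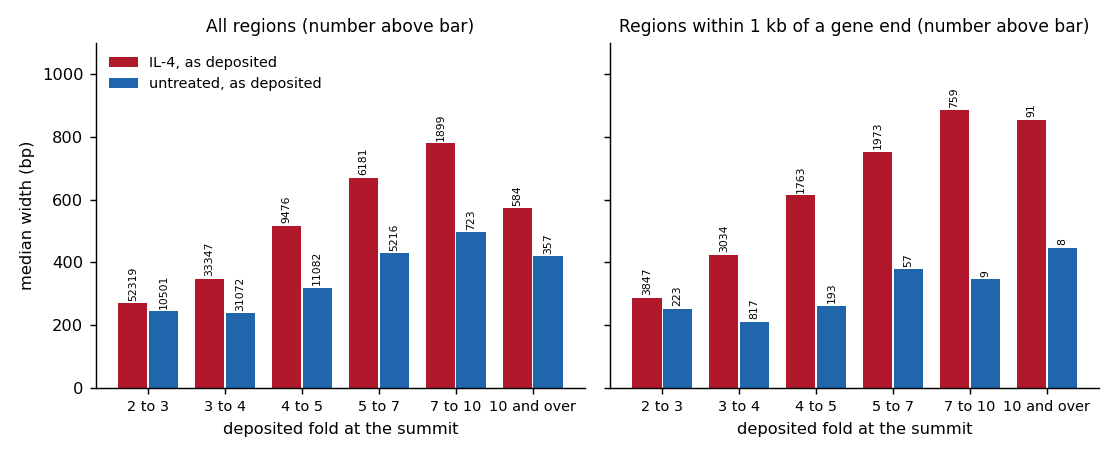
Median region width in bp (bars, y axis from 0) by deposited fold at the summit (x axis) for all regions (left) and for regions within 1 kb of a gene end (right), with the number of regions above each bar. The IL-4 bar is the higher in every fold class, by more near gene ends (752 against 377 bp at folds from 5 to 7), and the untreated bars at folds of 7 and over near gene ends rest on 9 and 8 regions.

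The widest IL-4 region at a gene end, 2688 bp (chr5:115489715-115492402), lay where Sirt4, a mitochondrial sirtuin, and Pxn, the focal adhesion protein paxillin, meet. Next came Stat6, the transcription factor that IL-4 activates, with 2389 bp (chr10:127641828-127644216) and a modest fold of 3.49 over a pileup of 34 reads. Usp9x, a deubiquitinase, had 2257 bp. A region of 2216 bp with a fold of 5.60 lay over the start of Tnf, the gene of the inflammatory cytokine. It also came within 1 kb of an end of the neighbour Lta. Kctd12, Pcbp1 (an RNA-binding protein), the pair Tbc1d17 and Akt1s1 (the mTORC1 subunit PRAS40) and the histone genes H2ac18 and H3c14 followed with 2210, 2191, 2038 and 2027 bp. Of these only the histone genes had an untreated gene-end region, of 488 bp with a fold of 4.32.

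Where IL-4 regions were stronger, untreated regions were more often present. An untreated gene-end region was found at 4.07% of the genes with none in IL-4, at 7.35% of the genes with an IL-4 fold below 3, at 8.20% with a fold of 5 to 6, at 14.2% with a fold of 6 to 8 and at 30.5% (155 of 509) with a fold of 8 or more. Between folds of 3 and 5 the shares were 6.68% and 7.31%, close to the 6.71% of all genes. After thinning, 88.8% of the genes with IL-4 folds from 3 to 4 and 100% of those with folds from 4 upward were still marked. The thinning rule sets this in advance for folds that high, so it is not a result about depth. Most genes with an IL-4 region kept by that rule had no untreated region called, and the part of depth in this was not tested.

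Genes with strong regions in both lists were few. After Wls, the highest pairs of folds were at Lars2, the mitochondrial leucyl-tRNA synthetase (28.4 in IL-4, 23.6 in untreated), Asmt (16.2 and 15.4), Sspn (19.6 and 11.6), Pou2f1 (9.65 and 9.59), Gp9, a platelet glycoprotein (7.79 and 12.0), and Zfp317, a zinc finger gene (7.72 and 8.64). P2ry6, a nucleotide receptor of macrophages, had folds of 17.2 and 7.50, the interferon-response gene Ifi44l 7.46 and 8.33, and the vomeronasal receptor gene Vmn2r4 12.0 and 7.35. Only Zfp317 of these is among the promoters printed above. The regions of these genes were not screened for repeated sequence, so high folds in both lists are not read as strong NPM1 binding. In the opposite direction, 3 genes had an untreated gene-end region with a −log10 q of 5 or more and no IL-4 region within 5 kb. They were Sema5b, a semaphorin (fold 6.61, 335 bp), Dsg4, a desmoglein of skin (6.05, 211 bp), and Krtap5-3, a keratin-associated protein (5.62, 285 bp). Of the 87 genes with such a strong untreated region, 81 had an IL-4 gene-end region too.

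Npm1 itself carried an IL-4 region of 627 bp (chr11:33162729-33163355) with a fold of 5.46 and a −log10 q of 12.2, and no untreated gene-end region was called there.

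Gene families were read against these backgrounds of 51.2% and 6.71%. Of 89 families with 10 or more members, 87 had a larger marked share in IL-4 than in untreated, and 53 were above the share of all genes in IL-4. Among these, the 10 families with the highest IL-4 shares, from 88.2% upward, are described first. All 10 subunits of the RNA exosome, which trims and degrades RNA, were marked in IL-4 and 1 in untreated (Exosc8). Exosc5 had the highest fold there, 7.52 over 746 bp, and Exosc1 6.72. The anaphase-promoting complex, a ubiquitin ligase of mitosis, had 14 of 15 subunits marked (Anapc4 at 6.82) and none in untreated.

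RNA polymerase subunits were marked at 26 of 28 genes in IL-4, led by Polr2b and Polr3g at 7.25 and 6.76, and at 1 in untreated. That 1 was Polr3gl, with a fold of 7.35 over 444 bp in untreated and 4.67 over 1013 bp in IL-4. The symbols beginning with Irf, the interferon regulatory factors and the related Irf2bp genes, had 11 of 12 marked, with Irf2bp2 at 6.02 and Irf4, a factor induced by IL-4, at 5.98, and none in untreated. Sorting nexins, which carry cargo between endosomes, had 27 of 30 (Snx3 at 9.77, Snx11 at 8.33) against 2, and cyclin-dependent kinases 16 of 18 (Cdk13 at 9.59, Cdk17 at 7.81) against 0. Cytosolic ribosomal protein genes had 84 of 95 (Rps29 at 8.97, Rps23 at 7.44) against 4, which at 4.21% is below the share of all genes in untreated. Aminoacyl-tRNA synthetase genes had 30 of 34 against 1, Lars2.

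Clustered histone genes had larger marked shares than all genes in both lists. In IL-4 61 of 67 were marked and in untreated 15 (22.4%), all of which were also marked in IL-4. These genes are small and packed together, so the 61 rest on 40 separate IL-4 regions and the members are not independent. The 15 share untreated regions as well. H2bc23, H2ac23 and H4c17 rest on the same untreated region of 200 bp, with a −log10 q of 1.01. No clustered histone gene had an untreated −log10 q of 5 or more. The pair H3c15 and H2ac19 shared a region of 1814 bp with a fold of 7.33 in IL-4 and of 379 bp with a fold of 3.89 in untreated. The minichromosome maintenance genes, some of whose products form the replicative helicase, had 9 of 10 marked in IL-4 (Mcm7 at 5.65) and 2 in untreated, Mcm4 and Mcm8. At Mcm8 the untreated q was above 0.05. Kruppel-like factors had 12 of 17 in IL-4, with Klf7 at 9.16, and 4 (23.5%) in untreated, namely Klf3, Klf10, Klf11 and Klf17, the last without an IL-4 region. These 4 untreated regions had summits of only 6 or 7 reads, and q was above 0.05 at Klf10 and Klf11.

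The lowest IL-4 shares included families best known from sensory tissue and skin. No bitter taste receptor gene of 35 was marked in either list. Olfactory receptor genes, the largest family with 1110 members, had 46 (4.14%) marked in IL-4, 18 in the thinned IL-4 list and 35 (3.15%) in untreated, of which 9 were common to the deposited lists. Olfr460 had the highest IL-4 fold, 5.21, and Olfr1031 the highest untreated fold, 5.62. Beta-defensins had 3 of 42 against 2, vomeronasal type 2 receptors 9 of 124 against 6 (Vmn2r4 and Vmn2r2 leading in both), vomeronasal type 1 receptors 25 of 231 against 7 (Vmn1r4 at 5.60), and keratin-associated proteins 8 of 56 against 3. NLRP genes had 2 of 18, the inflammasome gene Nlrp3 at 5.14 and Nlrp1a at 3.09, against 0, and serpins 10 of 63 (Serpinb6a at 6.76) against 1. In each of these families the IL-4 share was 15.9% or less, against 51.2% of all genes.

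After thinning 11 families had no larger share in the IL-4 list than in untreated. They were the major urinary proteins, Speer proteins, fibroblast growth factors, alpha- and beta-defensins, secretoglobins, late cornified envelope and small proline-rich proteins, keratin-associated proteins, vomeronasal type 2 receptors, olfactory receptors and bitter taste receptors. Major urinary protein genes, a tandem array on chromosome 4, were marked at 13 of 22 in IL-4, 10 after thinning and 10 in untreated, with Mup19 at 4.15 and 3.67. Speer genes had 4 of 10 in IL-4 and 5 in untreated, the only family with any mark in which untreated had the larger share as deposited. Both are arrays of near-identical copies, where short reads cannot be placed with certainty, and their values are uncertain for that reason.

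**Figure D4:**
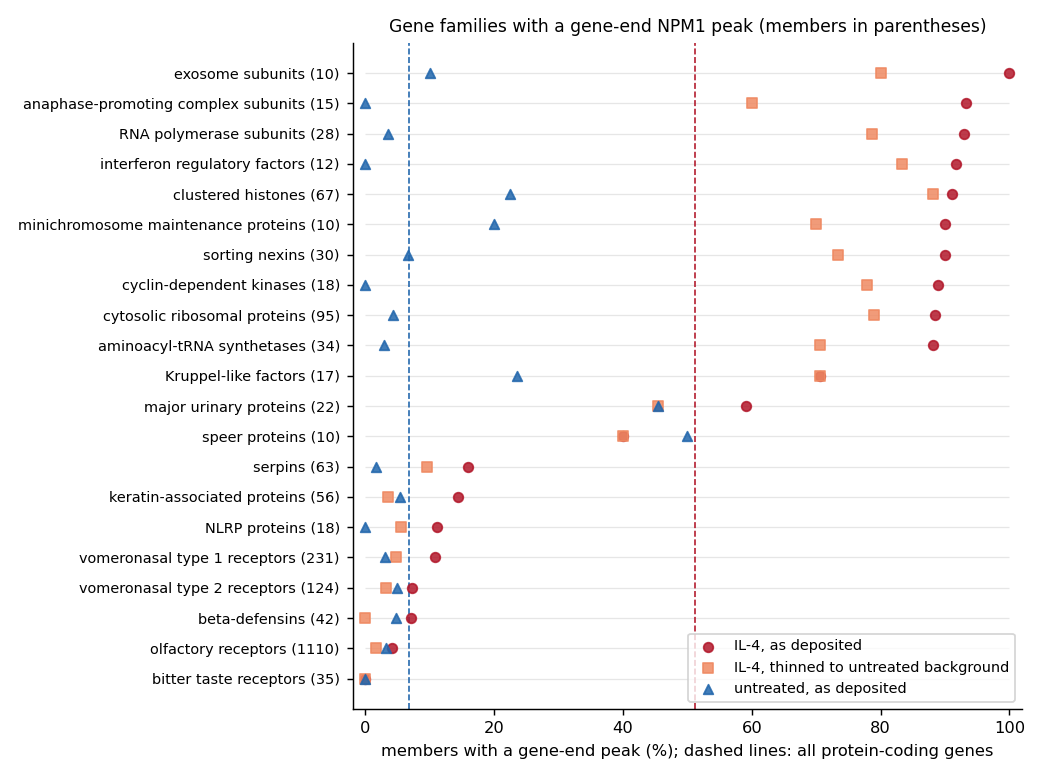
Percent of members with a gene-end NPM1 region (x axis) in 21 gene families (y axis, number of members in parentheses), for the IL-4 list (circles), the IL-4 list thinned to the untreated background (squares) and the untreated list (triangles), with dashed lines at 51.2% and 6.71% for all genes in IL-4 and untreated. The 10 families at the top lie at 88.2% or more in IL-4, and the thinned squares meet or pass below the triangles at major urinary proteins and in several of the sensory and skin families.

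Genes of the IL-4 pathway were described from the receptor inward. Of 25 genes of the receptor, its kinases, factors and feedback inhibitors, 20 (80%) were marked in IL-4 and 17 (68%) after thinning. The shares of all genes were 51.2% and 40.1%, and those of housekeeping genes 80% and 70%. In untreated 1 of the 25 (4%) was marked, below the 6.71% of all genes. Among the receptor chains, Il4ra had a region of 349 bp with a fold of 3.06, and Il2rg and Il13ra1, both on chromosome X, had none. The kinases Jak1 and Jak2 had folds of 5.89 and 6.05, Jak3 2.75 and Tyk2 3.91. Stat6 and Stat3 are given above, and Irs2, an adaptor phosphorylated after IL-4 binding, had 5.65 over 1186 bp. The feedback inhibitors Socs1, Socs3 and Cish had 5.21, 3.95 and 2.49. Ptpn6, a phosphatase, was the gene marked in both lists, with 2.13 at its start in IL-4 and 3.81 at its other end in untreated. Ptpn1, Kdm6b and Egr2 had no region in either list.

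Among 23 effector genes of alternative activation, 11 were marked in IL-4, all 11 also after thinning, and none in untreated. The IL-4 share of 47.8% is close to the 51.2% of all genes. Tfrc, the transferrin receptor, had the highest fold, 7.97 over 753 bp, followed by the mannose receptor gene Mrc1 with 4.86 over 695 bp, Tgm2, a transglutaminase, with 4.11 and Hbegf, a growth factor, with 4.10. The chitinase-like gene Chil3 and the chemokine gene Ccl17 had regions at the end opposite to their start, with folds of 3.86 and 3.33. The signature genes Arg1 and Retnla, and Ccl22, Ccl24 and Mgl2, had no gene-end region in either list.

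Lipid genes controlled by PPAR and LXR receptors were marked at 20 of 24 in IL-4, 19 after thinning and 2 in untreated. Acsl1, which activates fatty acids, led with 10.8 over 1401 bp and also had an untreated region of 314 bp with a fold of 3.46. Srebf2, a regulator of cholesterol synthesis, had 8.72, the lipid carrier gene Fabp5 7.79 and the lysosomal lipase gene Lipa 7.61, and Pparg, the receptor gene, had 5.64. Ppara had the lowest of these folds, 2.32 in IL-4 and 3.02 in untreated, each in a region with q above 0.05, and these did not overlap.

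Inflammatory genes were marked as well. Of 26 genes of cytokines, chemokines and enzymes, 15 were marked in IL-4, 13 after thinning and none in untreated. Cxcl2 had a fold of 7.41, a region shared by Ccl3 and Ccl4 7.40, Ccl2 7.102 and Tnf 5.60. Il6, Il12a, Il12b and Ptgs2 had none, and Nos2, the inducible nitric oxide synthase, had 2.79 over 236 bp. The share of 57.7% was near that of all genes.

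Of 28 genes of NF-kappaB and AP-1, factors that respond within minutes to many stimuli, 26 were marked in IL-4, 25 after thinning and 3 in untreated. Malt1, Relb and Egr1 were the 3, with IL-4 folds of 10.03, 9.05 and 5.75 over 1070, 1115 and 1921 bp and untreated folds of 3.46, 3.02 and 3.46 over 262, 411 and 200 bp. At Relb the untreated q was above 0.05. Nfkbib, an inhibitor of NF-kappaB, had an IL-4 fold of 8.15 and Bcl10, the partner of Malt1, 6.91. Myeloid transcription factors had 20 of 25 marked in IL-4 and 2 in untreated, among them Cebpd (4.74 and 3.46). Id2, Cebpa, Bhlhe40 and Klf6 led that list with 6.93, 6.41, 5.89 and 5.72.

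In mTORC1 and TSC signalling, which couples nutrients to growth, 29 of 34 genes were marked in IL-4, 26 after thinning and 5 (14.7%) in untreated. Sesn1, Ulk1, Eif4ebp1 and Rragc had the highest IL-4 folds, 8.07, 7.23, 6.44 and 6.18. The 5 in untreated were Mlst8 and Lamtor2, subunits of mTORC1 and of its lysosomal anchor (6.12 and 5.88 in IL-4, 3.46 each in untreated), Tfeb, Rragd and Nprl2. At Tfeb and Nprl2 the regions of the 2 lists lay at opposite ends of the gene. Tsc2 had no region in either list. In glycolysis and the pentose phosphate path 20 of 23 genes were marked in IL-4 and 3 in untreated, Pfkl, Slc2a1 (at opposite gene ends in the 2 lists) and Pfkfb3, with Pgam1, Hk2, Eno1 and Pfkp highest in IL-4 at 7.74, 7.70, 7.56 and 7.32.

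Genes for nucleophosmins, histone chaperones and nucleolar proteins were marked at 25 of 30 in IL-4, 23 after thinning and 2 in untreated. Gnl3 and Ncl, both nucleolar, had folds of 8.997 and 8.85 and Npm3 2.64, and Npm2 had none. The histone chaperone genes Asf1b and Daxx were the 2 in both, with 8.88 over 1251 bp and 8.51 over 445 bp in IL-4 and 4.32 over 204 bp and 3.46 over 200 bp in untreated. At Asf1b both regions were at the gene start, and at Daxx the IL-4 region lay at the other end and the untreated region at the start. Enzymes that set or remove H3K4 methylation had 16 of 21 in IL-4 and 1 in untreated. Kdm1b, printed above, had the highest fold, 12.3 over 743 bp against 4.32 over 411 bp, and Kmt2a, Kmt2c and Kmt2b had 9.01, 6.98 and 6.31. Kdm5b, an H3K4 demethylase gene, had none.

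Housekeeping genes were marked at 16 of 20 in IL-4 and at 2 in untreated, among them Ppia, the gene of cyclophilin A (6.30 and 3.89). Each of these lists had between 0 and 5 members marked in untreated. Apart from the effector and inflammatory lists, their IL-4 shares ran from 76.2% (H3K4 methylation enzymes) to 92.9% (NF-kappaB and AP-1), against 51.2% of all genes. The housekeeping share of 80% lay within that range, so shares of this size are not particular to any of these pathways.

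Markers were used to check the labelled cell type. Of 28 macrophage identity genes 24 (85.7%) were marked in IL-4, with Sirpa, Ctsb, Tyrobp and C1qc at 6.14, 6.13, 5.92 and 5.83. That share was above the 51.2% of all genes and near the 80% of housekeeping genes. In untreated 2 (7.14%) were marked, Lgals3 (with q above 0.05) and Fcgr3, a share near that of all genes. The untreated list therefore does not separate macrophage genes from other genes, and the label of that library was not checked by it. Lists for neutrophils, mast cells, dendritic cells, B cells, T and NK cells, fibroblasts, endothelium and the erythroid and megakaryocyte lineages hold 104 entries, of which 36 were marked in IL-4, 16 after thinning and 4 in untreated (Gata2, Prf1, Hbb-bs and Gp9), and 8 had an IL-4 −log10 q of 5 or more. Thy1 is in the lists of both T cells and fibroblasts and was counted in each. At Gata2 the untreated q was above 0.05. Ms4a1, Col1a1, Mpo and Cpa3 had none in either list, and other defining genes had IL-4 regions, among them S100a8 of neutrophils (4.63), Cd3d of T cells (4.69), Itgax of dendritic cells (4.27), Cd79b of B cells (2.29), Pecam1 of endothelium and Hba-a1 of the erythroid lineage (3.47 each). The part of such cells in the results was not tested. The highest marker folds were of Xcr1 at the end opposite to its start (10 in IL-4) and Gp9, given above. Among 24 genes of other tissues 8 were marked in IL-4 and 1 in untreated, led by the sperm protein genes Prm1, Tnp1 and Prm2 at 9.08, 6.37 and 5.98. Their summits lay nearer to the end opposite to the gene start. These genes are so short that each region also came within 1 kb of the start, and that of Prm1 covered the whole gene.

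The CpG content of gene starts went with NPM1 presence in both lists. Of 17492 promoters of 300 bases, 7078 (40.5%) overlapped an IL-4 region, 423 (2.42%) an untreated region and 340 both. The median CpG number was 13 over all promoters, 23 in those with an IL-4 region, 23 in those with an untreated region, 25 in those with both and 5 in those with neither. The 83 promoters with an untreated region only had a median of 5, and 23 of them (27.7%) held the GC box described below. By CpG class, the IL-4 share went from 2.52% of the 911 promoters with no CpG through 41.5% at 10 to 14 CpGs to 70.0% of the 4277 with 25 or more. The untreated share went from 1.21% to 4.44% over the same classes. The CpG-rich starts were thus the more often marked ones in both lists, and the median CpG number of promoters marked in untreated alone was that of unmarked promoters.

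**Figure D5:**
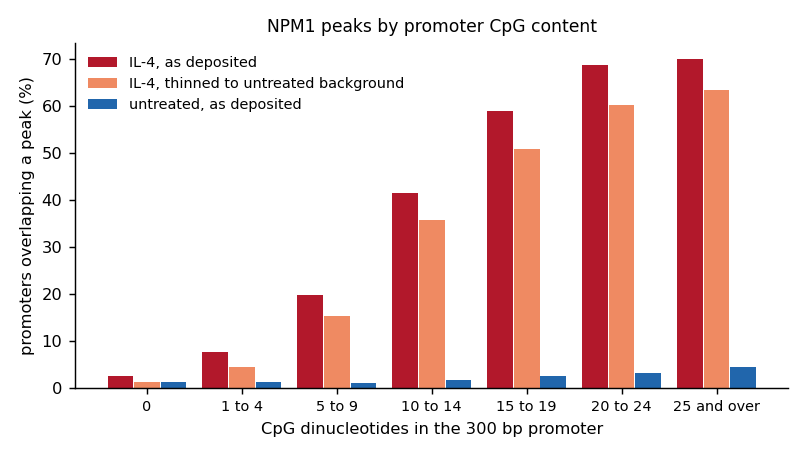
Percent of promoters overlapping an NPM1 region (bars, y axis from 0) by number of CpG dinucleotides in the 300 bp promoter (x axis), for the IL-4 list, the IL-4 list thinned to the untreated background and the untreated list. The IL-4 bars go from 2.52% to 70.0%, the thinned bars from 1.21% to 63.4% and the untreated bars from 1.21% to 4.44%.

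The 12 short motifs searched on both strands in the same 300 bases are given, as a description, beside their share in all promoters. The GC box GGGCGG was in 46.3% of all promoters, 70.2% of those with an IL-4 region, 69.0% of those with an untreated region and 30.1% of those with neither. The ETS core CCGGAA was in 19.1%, 31.8%, 21.7% and 10.5% in the same order, and the YY1 motif AAGATGGC in 3.21%, 5.27%, 4.26% and 1.81%. The GC box and the ETS core each hold a CpG themselves, as do the NRF1 core, the CRE and the E-box given below. TATAAA went the other way, with 13.3% of all promoters, 6.03% with an IL-4 region, 6.38% with an untreated region and 18.4% with neither. The spaced STAT motifs TTCNNNGAA and TTCNNNNGAA, of which the second is the form that STAT6 is known to prefer, were in 7.78% and 6.38% of all promoters, in 6.005% and 4.93% of those with an IL-4 region, in 4.49% and 3.78% of those with an untreated region and in 9.002% and 7.38% of those with neither. The CCAAT box CCAAT was in 39.2% of all promoters, and its share was higher with an untreated region (214 of 423, 50.6%) than with an IL-4 region (41.6%) or neither (37.5%). The NRF1 core CGCATGCG, the CRE TGACGTCA, the E-box CACGTG and the PU.1 core GAGGAAGT were in 2.55%, 2.33%, 7.91% and 3.14% of all promoters, in 4.69%, 3.77%, 11.01% and 3.49% of those with an IL-4 region and in 3.07%, 2.60%, 8.27% and 2.60% of those with an untreated region. The AP-1 motif TGANTCA was in 7.03% of all promoters, 4.32% with an IL-4 region, 3.07% with an untreated region and 8.90% with neither. Among the printed promoters only Retnla, without a region, holds TTCNNNNGAA.

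Other libraries of the series give readouts that did not choose these regions. An infarct library of cardiac macrophages with the NPM1 antibody and 1 with an H3K4me3 antibody, both WT at 3 days after the operation, were read as lists of 79893 and 73321 regions. Of the genes marked only in IL-4, 84.9% were marked in the infarct NPM1 list and 87.6% in the H3K4me3 list. For genes marked only in untreated the shares were 19.4% and 27.4%, close to the 14.4% and 25.3% of genes marked in neither BMDM list. Genes marked in both BMDM lists had 84.9% and 84.4%. Over all genes the shares were 50.6% and 57.1%. The NPM1 list of WT cardiac macrophages at 3 days after a sham operation, with 58011 regions, did not go the same way. It marked 12.6% of the IL-4 only genes, 10.6% of the untreated only genes, 33.0% of those in both and 6.93% of those in neither, against 10.9% of all genes.

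Whole regions were read against the same lists. Of the IL-4 regions without an untreated partner, 38.9% overlapped the infarct NPM1 list, 31.9% the H3K4me3 list and 15.1% the sham NPM1 list. Of the untreated regions without an IL-4 partner, 3.46%, 3.57% and 5.79% did in the same order. Untreated regions with an IL-4 partner overlapped the 3 lists at 37.5%, 30.2% and 41.2%. The 34803 untreated regions without an IL-4 partner were thus less often found in these lists, had a median width of 225 bp, and 2.40% of them had a −log10 q of 5 or more. The other lists share neither tissue nor depth with the BMDM libraries, and how far depth sets these shares was not tested.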

How the data were processed

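CUT&Tag with an NPM1 antibody was done on 1 library of IL-4-stimulated and 1 of untreated WT BMDM. The build was mm10 and the tools named are MACS2 2.2.7.1, Bowtie2, deepTools and bcl2fastq 2.17, per the submitters' processing notes. Settings, control library, duplicate rules and spike-in: none is given in the sources used here. The authors deposited narrowPeak lists with, per region, a position and summit, a score (10 times the −log10 p), a fold enrichment ratio, and a −log10 p and −log10 q. Folds and q-values served to rank, filter or describe regions within a list; the same fold or q threshold, applied to each list, does not stand for the same amount of binding or the same read number.

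The members, families, gene lists and motifs were chosen with earlier results of these data known. Genes were 21887 protein-coding genes of the RefSeq table of GRCm38.p6, which is mm10. Strand came from RefSeq promoters and was known for 17492 genes. The table gives outer gene ends only, so internal starts, exons and introns were not examined. Regions were shared with 1 bp or more of overlap.

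A whole-number summit pileup and a background were solved from fold and −log10 p, matching within 0.001 for 99.9% of the summits of both lists. The most frequent background gave the depth ratio. For thinning, IL-4 pileups and backgrounds were divided by it, pileups rounded down, and regions kept at a −log10 p of 2 or more. Unmatched summits, the strongest, were kept. The code was tested on simulated lists.

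Genes were named by rule: Npm1, the 10 genes with the highest lower fold of overlapping gene-end regions in both lists, the 8 widest IL-4 gene-end regions, genes with an untreated −log10 q of 5 or more and no IL-4 region within 5 kb, and in each list the 4 members with the highest fold and each member with an untreated region. Families named were the 10 highest and 8 lowest in IL-4 share and those with an untreated share at least as large. Predicted genes were passed over, and a few members that this rule takes in are not reported here. Further genes (receptor chains, inhibitors, cytokines, defining markers and other pathway genes, with the Kruppel-like factors and major urinary proteins) were named after their values were seen, to complete a description. Alternatives covered window, threshold, list length, depth and overlap. Software was scipy 1.17.1, pandas 2.3.3, numpy 2.4.6 and matplotlib 3.10.9 under Python 3.11.15.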

Additional observations from a re-analysis of the deposited data

How the results depend on the processing

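Under every alternative run, the IL-4 value stayed above the untreated value for the share of marked genes (8 alternatives), the median width (3) and the share of summits within 1 kb of a gene end (5), with ratios from 3.48 to 73.9, 1.17 to 1.57 and 2.95 to 19.6. Thinning and equal length only drop weaker IL-4 regions, which were narrower and less often near gene ends. A higher IL-4 width and summit share under these was thus set in advance. The ratios of 73.9 and 19.6 came with the −log10 q of 5 or more, which does not ask for the same read number in the 2 lists. Of 40 alternative values, 8 stayed within the 95% interval of the reported value (exact binomial, or order statistics for a median, counting error only) and 32 moved, by construction, with fewer regions or other windows. The 8 are no sign of stability. They are the summit share of each list with the midpoint in place of the summit, and untreated values under thinning and equal length. Those 2 settings leave the untreated list as it is, so its values could not move. The share of marked genes, 51.2% in IL-4 and 6.71% in untreated, became 45.6% and 4.67% with a 500 bp window, 70.8% and 20.4% with 5 kb, 29.4% and 0.398% with a −log10 q of 5 or more, 25.4% and 1.58% with a fold of 4 or more, 49.1% and 6.11% with the summit in the window, and 46.5% and 4.77% for gene starts only. In IL-4 it was 40.1% after thinning and 41.6% at equal list length. The shared part of the IL-4 list, 22.6%, became 14.04% with a reciprocal overlap of 50%, 13.4% with a −log10 q of 5 or more, 30.6% after thinning and 29.8% at equal length, and that of the untreated list, 41.0%, became 24.9%, 59.4%, 28.6% and 31.3%. Median widths with a −log10 q of 5 or more were 570 bp and 488 bp, and in IL-4 423 bp after thinning and 401 bp at equal length. The share of summits within 1 kb, 11.04% and 2.22%, became 23.5% and 1.196% with a −log10 q of 5 or more and 24.1% and 8.20% with 5 kb, and in IL-4 15.4% after thinning and 14.2% at equal length. With 1 library per group no paired analysis was possible because no replicates exist. Of the untreated regions 27.8% had a q above 0.05, against 15.9% in IL-4. The absence of a region means only that none was called at that depth.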

Other observations

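Promoters with few CpGs were marked in places. With 1 to 4 CpGs in 300 bases, 314 of 4186 promoters (7.50%) had an IL-4 region, 188 (4.49%) after thinning, and 51 (1.22%) an untreated region, and Mrc1 is among the 314. The sperm protein genes Prm1, Prm2 and Tnp1, known from spermatids, had IL-4 regions of 302 to 589 bp. The summits were nearer to the end opposite to the start, and each region also came within 1 kb of the start of these short genes. Prm2 also had a weak untreated region (fold 3.02, q above 0.05), which lay outside the gene and did not overlap its IL-4 region. Chromosome Y held 7.03% of the untreated list and 1.25% of its regions with a −log10 q of 5 or more, against 1.81% and 0.567% in IL-4. For chromosome X the untreated share was 6.06% and 6.78% and the IL-4 share 2.53% and 2.71% in the same order.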
